A study of Mus musculus with 14 samples.

Results

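Interleukin 6 and its relatives are cytokines that share the signalling receptor chain gp130, and 9 genes of this family were followed through 14 RNA sequencing libraries of cultured mouse fibroblasts. The genes were taken by symbol from the 48795 Ensembl genes of the count table and are Il6, Lif, Il11 and Osm (ligands), Il6st, Osmr, Lifr and Il6ra (receptor chains) and Socs3 (a feedback inhibitor). All 9 were found and all 9 passed the filter on low counts that left 16408 genes for testing.

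Each ligand binds a receptor chain of its own and brings it together with gp130, the product of Il6st. Il6ra binds IL-6, Lifr binds LIF, and Osmr pairs with gp130 to bind oncostatin M. The receptor complex activates JAK kinases, which phosphorylate STAT3, and STAT3 induces Socs3, whose product binds gp130 and the kinases and ends the signal. Fibroblasts are known as producers of IL-6, LIF and IL-11, and oncostatin M is known mainly as a product of macrophages and other leukocytes.

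The study compared fibroblasts from mice without Rel, the gene for the NF-kappaB subunit c-Rel, with fibroblasts from wild-type mice, in lung and in dorsal skin. All animals were labelled as male C57BL/6J mice of 8 to 10 weeks, either wild type or Rel-/-. The labels name no Cre driver or cell type to which the Rel deletion was limited. Cells that grew out of tissue pieces on plastic were harvested unstimulated at day 14, with no sorting step in the labels. The groups were wild-type lung (5 libraries, numbered 1, 23, 3, 4 and 5), Rel-null lung (4, numbered 7, 8, 9 and 10), wild-type skin (2, numbered 11 and 22) and Rel-null skin (3, numbered 18, 19 and 20). The labels do not say whether the libraries of a group came from separate animals, and the tests then measure the spread between these libraries only, which may be technical.

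Several libraries stood apart before any member was read. Wild-type skin 22 held 2663437 counts, and the other 13 libraries between 12780350 and 30987933. Genes at 0 that other libraries of the tissue expressed (gaps) were most frequent in 1 library of each group: Rel-null lung 7 (11.5% of expressed genes), wild-type skin 11 (8.22%), wild-type lung 4 (5.78%) and Rel-null skin 18 (3.37%). The share was at most 0.728% elsewhere. Rel itself read 1.1 to 17.3 CPM (counts scaled to the library total) in wild-type lung against 0.0651 to 4.06 in Rel-null lung. In skin it read 11.5 and 10.9 CPM in the wild-type libraries against 0.0349, 9.42 and 9.47 in the Rel-null ones. The libraries labelled Rel-null skin 19 and 20 thus went against their label. Rel-null lung 8, 9 and 10 read 4.06, 1.39 and 3.8 CPM. These lay above wild-type lung 4 (1.1) but under the other wild-type lung libraries (6.27 to 17.3). Rel-null lung 7 and skin 18, with 1 Rel count each, were the libraries with the most gaps in their groups. The Rel difference did not pass by edgeR in lung (adjusted p = 0.863) or in skin (adjusted p = 0.987), and where its deletion lies relative to the counted exons is not given in the labels. Xist, a transcript of female cells, was present in wild-type lung 1 (64.5 CPM) and wild-type skin 22 (732 CPM), and read at most 0.577 CPM elsewhere, although all mice are labelled male. Ddx3y, a Y chromosome gene, read 0 CPM in wild-type lung 1 and 1.13 in wild-type skin 22, against 34 to 177 elsewhere. Both genes go against the male label in these libraries, so sex and library cannot be told apart within wild-type skin. Rel-null lung 10 is lung by title and source but skin by its treatment label, and was kept with lung.

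The labelled fibroblasts expressed all 10 fibroblast genes checked, with summed levels of 25358 to 130875 CPM in lung and 11796 to 39204 CPM in skin. The lung cultures also carried leukocyte and macrophage transcripts. The 16 leukocyte genes summed to between 4929 and 21211 CPM in wild-type lung and between 8649 and 26866 in Rel-null lung. In skin the same sum was 52.9 and 121 CPM in wild type (Cd52 at 0) and 128 to 177 in Rel-null cultures (Marco at 0). The 10 keratinocyte genes summed to 31.2 and 49.3 CPM in wild-type skin (Krt15 at 0) and 1101 to 2899 in Rel-null skin. No lung library exceeded 27.5. Rel-null lung 10, with the conflicting treatment label, had a leukocyte sum of 22796 CPM and a keratinocyte sum of 11.6 CPM, and lay with the lung libraries in both. Summed levels of the 8 lymphocyte genes were at most 9.9 CPM in any library, and those of the 8 neutrophil and mast cell genes at most 44.7 CPM. Lung epithelial genes (8) summed to 23.3 to 180 CPM in lung, 4.51 and 33.7 in wild-type skin and 572 to 1126 in Rel-null skin, with Sftpc, Sftpb and Nkx2-1 at 0 in both skin groups. Endothelial (7), mesothelial (4) and adipocyte (6) genes reached at most 101, 222 and 2560 CPM in any library. In bulk libraries, fewer cells of a type and less RNA per cell cannot be told apart.

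Lif encodes leukemia inhibitory factor and was higher in Rel-null skin than in Rel-null lung. It lies on chromosome 11 (ENSMUSG00000034394, chr11:4257557-4272514, plus strand, GRCm38), 16.5 kb from Osm. Lif read 82.1, 106, 4.65, 120 and 6.5 CPM across wild-type lung (libraries 1, 23, 3, 4 and 5), and 0.716, 4.44, 3.56 and 4.61 CPM across Rel-null lung (7, 8, 9 and 10). Wild-type lung split into 3 libraries above 80 and 2 below 7, and every Rel-null lung library lay under the lowest of them by a narrow margin. In skin, Lif read 126 and 30.4 CPM in the wild-type libraries (11 and 22) and 105, 237 and 269 CPM in the Rel-null libraries (18, 19 and 20). All 3 Rel-null skin libraries were above all 4 Rel-null lung libraries, whereas the wild-type tissues overlapped, with skin 11 just above the highest lung library and skin 22 inside the lung range.

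The 250 bases before the RefSeq starts of Il6, Lif and Socs3 are shown because these are the inducible genes on which the ligand and feedback results turn, and because they differ in which of 3 motifs they hold (RefSeq, GRCm38.p6, gene strand, matches in capitals). Windows were searched on both strands for a STAT motif (TTCNNNGAA), an AP-1 motif (TGANTCA) and the NF-kappaB motif, and the matches do not overlap one another.

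Il6 chr5:30012864-30013113 plus: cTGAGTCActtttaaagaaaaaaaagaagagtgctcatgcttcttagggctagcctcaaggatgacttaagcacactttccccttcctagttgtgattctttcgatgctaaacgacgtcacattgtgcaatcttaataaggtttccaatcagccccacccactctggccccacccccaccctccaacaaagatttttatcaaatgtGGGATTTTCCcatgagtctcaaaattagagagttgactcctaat

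Lif chr11:4257318-4257567 plus: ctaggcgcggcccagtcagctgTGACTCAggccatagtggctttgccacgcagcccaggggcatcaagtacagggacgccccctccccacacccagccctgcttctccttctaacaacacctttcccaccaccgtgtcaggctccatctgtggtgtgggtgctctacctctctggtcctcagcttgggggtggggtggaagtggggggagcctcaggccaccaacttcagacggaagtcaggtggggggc

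Socs3 chr11:117969367-117969616 minus: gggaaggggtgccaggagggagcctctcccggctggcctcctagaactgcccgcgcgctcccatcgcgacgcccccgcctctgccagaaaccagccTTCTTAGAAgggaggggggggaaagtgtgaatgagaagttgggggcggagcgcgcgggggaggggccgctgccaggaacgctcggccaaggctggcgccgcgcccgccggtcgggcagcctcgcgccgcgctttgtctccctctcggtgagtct

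In the Il6 window the capitals mark an AP-1 match at -249 to -243 and an NF-kappaB match at -44 to -35, counted back from the start. The Lif window held an AP-1 match at -228 to -222 and no NF-kappaB match, and the Socs3 window a STAT match at -154 to -146. Of 32817 such windows in the RefSeq table, 7.01% held the STAT motif, 4.65% the NF-kappaB motif and 6.75% the AP-1 motif. One of the 2 Il11 windows held an AP-1 match (-98 to -92), and the windows of Osmr, Lifr, Il6st and Il6ra held none of the 3. A match is a description of letters, and the absence of one says only that these letters are not in the window.

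In lung, the Lif difference between Rel-null and wild-type libraries was -4.22 ± 0.94 on the log2 scale by edgeR's quasi-likelihood test (± SE, unadjusted p = 0.000394), which did not pass after adjustment over all genes (adjusted p = 0.781). The call depended on the tool: the adjusted p was 8.81e-05 by DESeq2, 0.0111 by edgeR without a low-count filter and 0.801 by limma-voom with quality weights. An exact two-sided permutation test of log2(CPM + 1) gave p = 0.0476, adjusted to 0.187 over the 36 such tests of members. Lif was the only member whose lung groups did not overlap, where 1.30% of all genes were lower without overlap. The nearest libraries were Rel-null lung 10 (4.61 CPM, 95% counting interval 3.74 to 5.63) and wild-type lung 3 (4.65, 3.92 to 5.47). That gap is within counting error. In skin the difference was 1.35 ± 1.13 in the other direction (adjusted p = 0.873) and the groups overlapped. The difference between the skin and lung effects was 5.57 ± 1.54 (unadjusted p = 0.00236, edgeR adjusted p = 0.678), with adjusted p-values of 0.00975 by DESeq2, 0.0393 by edgeR without a low-count filter and 0.675 by limma-voom.

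Between tissues, Lif was 5.77 ± 1.05 higher in Rel-null skin than in Rel-null lung (edgeR adjusted p = 0.00323), and this call held in all 24 alternative fits. The weakest was the fit without Rel-null skin 19 and 20 (4.85, adjusted p = 0.0498), which leaves library 18 alone in its group and takes its spread from the other groups. The wild-type cultures differed by 0.20 ± 0.98 (adjusted p = 0.98). Without wild-type skin 11 the wild-type value was -1.36. Fits without wild-type skin 11 or 22 leave 1 library in that group, which is then assumed to vary like the other groups. The leukocyte sum was 8649 to 26866 CPM in Rel-null lung and 128 to 177 CPM in Rel-null skin. The keratinocyte sum was 5.43 to 27.5 CPM in Rel-null lung and 1101 to 2899 CPM in Rel-null skin. The part of these sums in the Lif tissue difference was not tested.

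**Figure D1:**
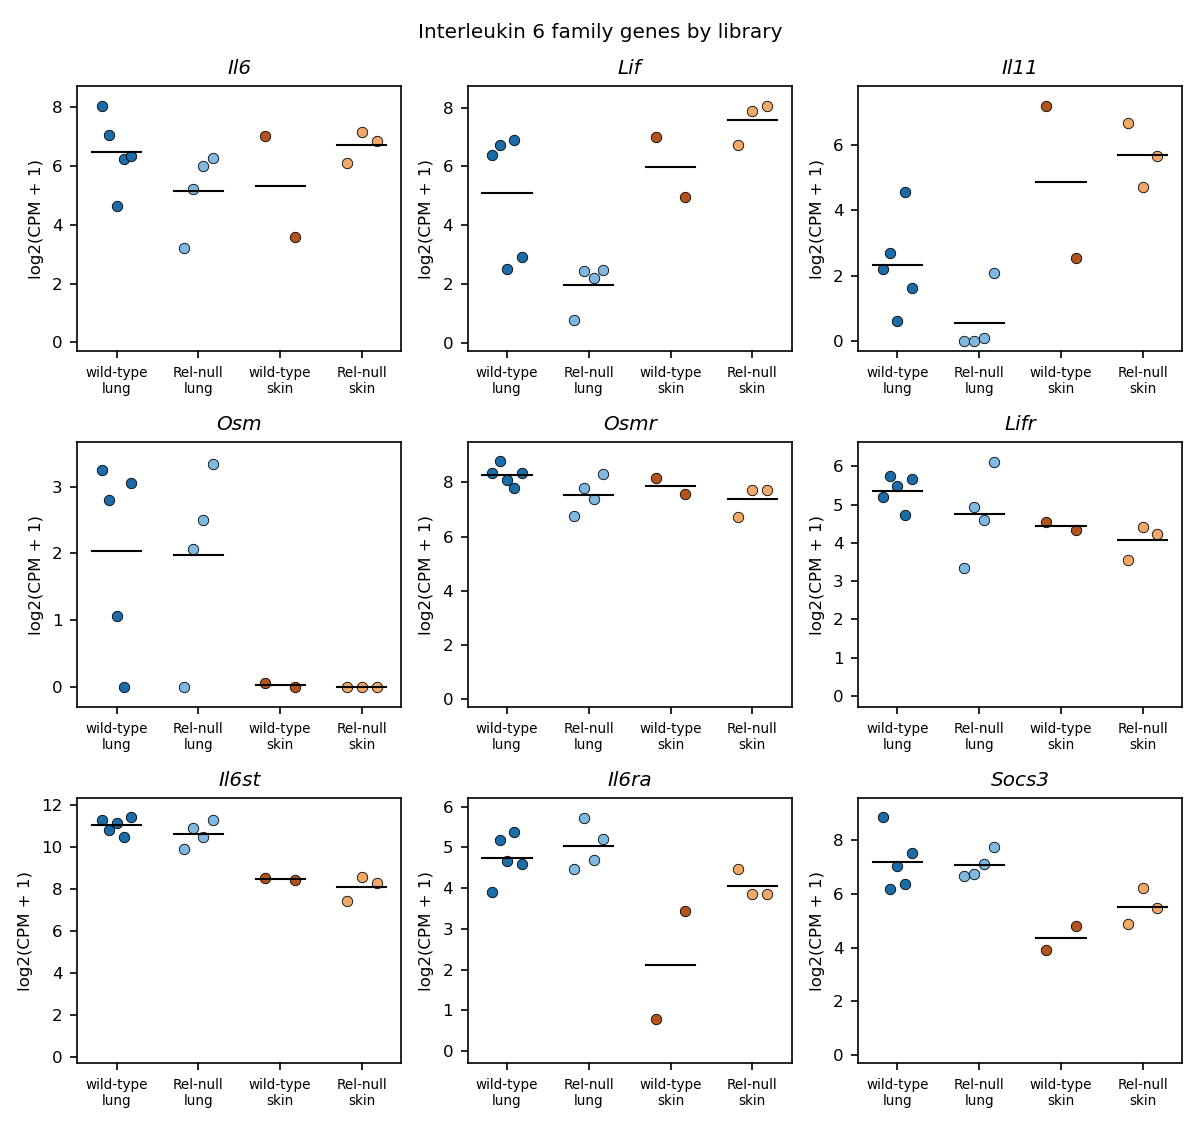
Each panel plots one member as log2(CPM + 1), with a dot per library, a bar at the mean of the log values, and the 4 groups along the x axis. Lif reads 0.716 to 4.61 CPM across Rel-null lung and 105 to 269 CPM in Rel-null skin, and Il6st is lower in every skin library than in every lung library.

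Il6 encodes the founding cytokine of the family, which drives acute-phase and inflammatory responses (ENSMUSG00000025746, chr5:30013114-30019981, plus strand). It read 262, 129, 23.5, 73 and 80.2 CPM across wild-type lung (1, 23, 3, 4 and 5) and 8.13, 35.6, 61.9 and 75.3 CPM across Rel-null lung (7, 8, 9 and 10). In skin it read 128 and 10.9 CPM in the wild-type libraries and 67.8, 140 and 112 CPM in the Rel-null libraries. The 2 wild-type skin libraries lay far apart, and the genotypes overlapped in both tissues. The Rel-null minus wild-type difference of Il6 was -1.39 ± 0.76 in lung (edgeR adjusted p = 0.809), and the skin value was 0.56 ± 1.01 (adjusted p = 0.981). Neither passed. Skin and lung differed by -0.86 ± 0.96 in wild type (adjusted p = 0.814) and by 1.09 ± 0.83 in Rel-null cultures (adjusted p = 0.562). The skin effect and the wild-type tissue difference depended on both wild-type skin libraries: they were -0.32 and 0.02 without library 22, and 3.49 and -3.75 without library 11.

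Il11, a ligand known for its induction by TGF-beta in fibroblasts (ENSMUSG00000004371, chr7:4772373-4782859, minus strand), ran with Lif. It read 3.61, 5.5, 0.549, 22.5 and 2.09 CPM across wild-type lung and 0, 0, 0.0868 and 3.27 CPM across Rel-null lung. In skin it read 144 and 4.88 CPM in wild type and 100, 25 and 49.5 CPM in Rel-null libraries. All Rel-null skin libraries were above all Rel-null lung libraries, and 2 of the 4 Rel-null lung libraries had no Il11 read. The Rel-null tissue difference of 5.95 ± 1.66 just missed the threshold by edgeR (adjusted p = 0.0503) and passed by DESeq2 (adjusted p = 0.00758) and limma-voom (adjusted p = 0.00106). It passed in 4 of the 14 fits without 1 library. Without Rel-null lung 10, whose labels conflict on tissue but whose leukocyte sum lay with the lung libraries, it was 10.48 (adjusted p = 0.00398). In lung, the Rel-null minus wild-type difference of Il11 was -2.93 ± 1.40 (unadjusted p = 0.0538, adjusted p = 0.781) and -7.46 without Rel-null lung 10 (adjusted p = 0.273). In skin the difference was -0.40 ± 1.67 (adjusted p = 1). The wild-type tissue difference of 3.43 ± 1.45 (adjusted p = 0.302) turned to -0.74 without wild-type skin 11. The leukocyte and keratinocyte sums differed between the tissues as for Lif, and their part in the Il11 tissue differences was not tested.

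Osm, which encodes oncostatin M (ENSMUSG00000058755, chr11:4236420-4241026, plus strand), was a transcript of the lung cultures. It read 8.54, 5.93, 1.1, 0 and 7.31 CPM across wild-type lung and 0, 3.2, 4.64 and 9.08 CPM across Rel-null lung. The 5 skin libraries together held 1 Osm count, in wild-type skin 11. The lung libraries at 0 were wild-type lung 4 and Rel-null lung 7, which are also the lung libraries with the most gaps. Rel-null lung held 371 Osm counts and Rel-null skin 0 of 57173409. From the lung mean of 4.23 CPM, Osm was at least 80.7-fold higher in lung, against a floor of 3 counts over the skin group (0.0525 CPM). This bound takes the lung mean as it stands, over libraries of 0 to 9.08 CPM, and covers counting error in skin only. It was 49.9 without Rel-null lung 10 and 40.2 without Rel-null skin 18. For wild type, 518 lung counts against 1 skin count gave a ratio of 113, with an exact 95% interval of 20.1 to 4457 that covers counting error only. Without wild-type skin 11, which held that count and most of the group's depth, the wild-type skin count was 0 and the bound at least 3.86-fold. By edgeR the tissue difference did not pass in wild type (adjusted p = 0.375) or in Rel-null cultures (adjusted p = 0.0855), where DESeq2 gave 0.00131 and limma-voom 0.00045. The genotypes overlapped in lung (log2 difference -0.16 ± 1.62, adjusted p = 1).

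The tissue that held Osm also held leukocyte transcripts. Every lung library summed to at least 4929 CPM over the 16 leukocyte genes and no skin library exceeded 177. In Rel-null lung, library 7 had the lowest sum (8649) and no Osm count, and libraries 8, 9 and 10 had sums of 22353 to 26866 and 3.2 to 9.08 CPM of Osm. In wild-type lung, library 1 had the lowest sum (4929) and 8.54 CPM of Osm, library 3 the highest sum (21211) and 1.1, and libraries 23, 4 and 5 had sums of 14410, 18369 and 16532 with 5.93, 0 and 7.31. The part of leukocyte content in the tissue difference of Osm was not tested.

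**Figure D2:**
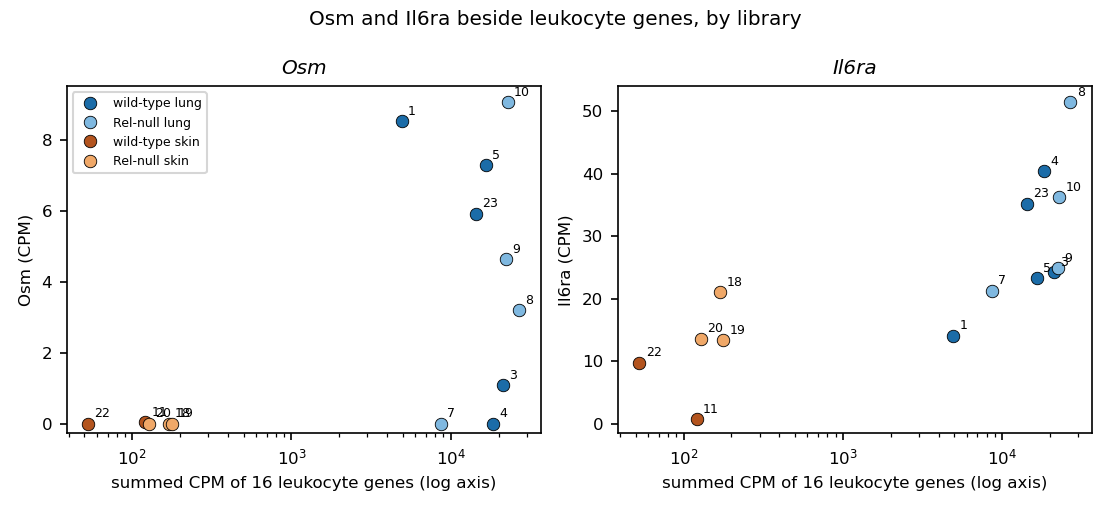
Osm (left) and Il6ra (right) in CPM are plotted against the summed CPM of 16 leukocyte genes on a log axis, with a numbered dot per library. The skin libraries sit at sums of 52.9 to 177 with Osm at or near 0, and the lung libraries at 4929 to 26866.

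Il6st, the gp130 gene that every member ligand depends on (ENSMUSG00000021756, chr13:112464070-112510086, plus strand), was lower in skin than in lung in both genotypes. It read 2527, 1797, 2232, 1405 and 2760 CPM across wild-type lung and 951, 1919, 1402 and 2515 CPM across Rel-null lung. Skin libraries read 372 and 347 CPM in wild type and 173, 381 and 309 CPM in Rel-null cultures. The highest skin library lay well under the lowest lung library. The skin minus lung difference of Il6st was -2.79 ± 0.53 in wild type (edgeR adjusted p = 0.00642) and -2.69 ± 0.45 in Rel-null cultures (adjusted p = 0.00169). The Rel-null call held in all 24 alternative fits (adjusted p = 0.0308 in the fit that keeps only Rel-null skin 18) and the wild-type call in 23, the exception being the fit without wild-type skin 11 (adjusted p = 0.0555). The genotype difference was -0.38 ± 0.36 in lung (adjusted p = 0.995), and the skin value was -0.28 ± 0.48 (adjusted p = 0.977), both with overlapping groups. The leukocyte sum and the tissue differ together here as for Osm, and its part in the Il6st difference was not tested.

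Osmr, the oncostatin M receptor chain (ENSMUSG00000022146, chr15:6813577-6874969, minus strand), was present in every culture, including the skin cultures, which together held 1 Osm count. It read 322, 437, 272, 223 and 325 CPM across wild-type lung, 106, 220, 165 and 312 CPM across Rel-null lung, 282 and 191 CPM in wild-type skin, and 104, 210 and 207 CPM in Rel-null skin. The groups overlapped in all 4 comparisons. Osmr differed by -0.67 ± 0.34 between Rel-null and wild-type lung (unadjusted p = 0.0682, edgeR adjusted p = 0.796) and by -0.42 ± 0.46 in skin (adjusted p = 0.93). Skin and lung differed by -0.60 ± 0.44 in wild type (adjusted p = 0.641) and by -0.35 ± 0.39 in Rel-null cultures (adjusted p = 0.74).

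Lifr, which encodes the chain that binds LIF (ENSMUSG00000054263, chr15:7090614-7197489, plus strand), lies 216 kb from Osmr. It read 35.8, 52.5, 44, 25.5 and 50.2 CPM across wild-type lung and 9.18, 29.8, 23.1 and 68.2 CPM across Rel-null lung. Skin libraries read 22.3 and 19.1 CPM in wild type and 10.8, 20.2 and 17.7 CPM in Rel-null cultures. Both wild-type skin libraries were under all wild-type lung libraries, but the difference of -1.19 ± 0.64 did not pass (edgeR adjusted p = 0.475, exact permutation p = 0.0476, adjusted to 0.187). The Rel-null tissue difference was -1.15 ± 0.56 (adjusted p = 0.286 by edgeR, 0.201 by DESeq2 and 0.0387 by limma-voom). The genotype difference was -0.36 ± 0.48 in lung (edgeR adjusted p = 1), beside a skin value of -0.32 ± 0.65 (adjusted p = 0.987).

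Il6ra encodes the chain that binds IL-6 and is known from leukocytes and hepatocytes (ENSMUSG00000027947, chr3:89864059-89913196, minus strand). Its exons overlap an antisense gene, Gm42809, and since the strand setting of the counting is not given, its counts are uncertain. Il6ra read 14.1, 35.2, 24.3, 40.4 and 23.3 CPM across wild-type lung and 21.3, 51.5, 24.9 and 36.2 CPM across Rel-null lung, and the groups overlapped (0.30 ± 0.55, edgeR adjusted p = 1). In skin it read 0.732 and 9.76 CPM in wild type and 21, 13.4 and 13.6 CPM in Rel-null libraries, with no overlap. The 95% counting intervals of the nearest libraries overlapped (Rel-null skin 19, 11.7 to 15.4, and wild-type skin 22, 6.38 to 14.3). The skin difference was 1.84 ± 0.82 (unadjusted p = 0.0408, adjusted p = 0.784) and passed only in fits without wild-type skin 22 (4.39, adjusted p = 0.0162 with that library alone left out). Those fits keep only wild-type skin 11, with 17 Il6ra counts, in the wild-type skin group and take its spread from the other groups. The wild-type skin minus lung difference was -2.73 ± 0.83, which did not pass by edgeR (adjusted p = 0.103) and passed by DESeq2 (adjusted p = 0.00384) and without wild-type skin 22 (adjusted p = 0.00321). The Rel-null tissue difference was -1.19 ± 0.64 (edgeR adjusted p = 0.343), passed by limma-voom (adjusted p = 0.00188), and again had no overlap. The nearest libraries were Rel-null skin 18 (21 CPM, 95% counting interval 19.3 to 22.7) and Rel-null lung 7 (21.3, 19 to 23.7). That gap is within counting error. The leukocyte sum was lower in every skin library than in every lung library, and its part in the Il6ra tissue differences was not tested.

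Exon length here merges all annotated exons of a gene, so ranks between genes depend on that choice. Scaled to this length, Il6st had the highest mean of the receptor chains in every group. Only in Rel-null skin did its range (15.6 to 34.4 CPM per kb) overlap those of Osmr and Il11ra1 (up to 17.3 and 25.1). The Il6st mean was 193 ± 49.3 CPM per kb in wild-type lung (SD, n = 5), 153 ± 60.7 in Rel-null lung (n = 4), 32.4 ± 1.55 in wild-type skin (n = 2) and 25.9 ± 9.52 in Rel-null skin (n = 3). Osmr had 26.1 ± 6.57, 16.6 ± 7.23, 19.5 ± 5.31 and 14.3 ± 4.99 CPM per kb in the same order. Il11ra1, the chain that binds IL-11, had 24.4 ± 5.88, 23.6 ± 6.8, 20.3 ± 12.9 and 20.2 ± 5.22, and was added to this ranking after its values were seen. The Osmr and Il11ra1 levels overlapped in each group. The other chains were lower. Lifr had 3.86 ± 1.03, 3.02 ± 2.34, 1.92 ± 0.209 and 1.51 ± 0.451 CPM per kb, and Il6ra with 3.18 ± 1.2, 3.87 ± 1.57, 0.607 ± 0.739 and 1.85 ± 0.499. Lifr and Il6ra did not separate beyond their spread in either lung group or in Rel-null skin. Cntfr, the chain for ciliary neurotrophic factor, had 5.27 ± 4.64, 3.26 ± 2.64, 0.472 ± 0.668 and 0.633 ± 0.312. Among these 3, Cntfr had the highest mean in wild-type lung, Il6ra in Rel-null lung and Rel-null skin, and Lifr in wild-type skin.

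**Figure D3:**
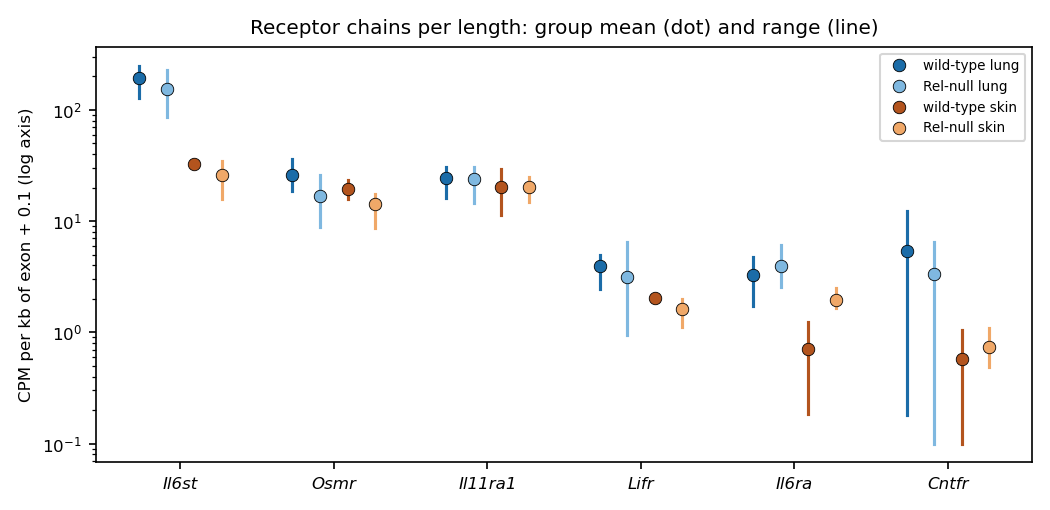
Receptor chains are plotted as CPM per kb of exon plus 0.1 on a log axis, with a dot at each group mean and a line over the range of its libraries. The Il6st mean is the highest in each group, at 193 CPM per kb for wild-type lung and 25.9 for Rel-null skin, where its range overlaps those of Osmr and Il11ra1.

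Socs3, the feedback inhibitor (ENSMUSG00000053113, chr11:117966079-117970047, minus strand), was lower in skin than in lung. It read 461, 71, 132, 81.6 and 181 CPM across wild-type lung, 101, 106, 136 and 214 CPM across Rel-null lung, 14.1 and 26.7 CPM in wild-type skin, and 28.6, 73 and 43.5 CPM in Rel-null skin. No skin library reached the lung libraries of its own genotype, and all Rel-null skin libraries were above both wild-type skin libraries. The nearest of these were Rel-null skin 18 (95% counting interval 26.6 to 30.6 CPM) and wild-type skin 22 (20.8 to 33.6). That gap is within counting error. The wild-type skin minus lung difference of Socs3 was -3.52 ± 0.82 (edgeR adjusted p = 0.0275), a call kept in 19 of 24 alternative fits. It was lost without wild-type skin 11 (adjusted p = 0.256), without wild-type skin 22 (adjusted p = 0.0617), without the 4 gap libraries (adjusted p = 0.0909), with only the 2 groups (adjusted p = 0.0919) and by limma-voom (adjusted p = 0.255). The Rel-null tissue difference was -1.65 ± 0.63 (adjusted p = 0.159 by edgeR, 0.0637 by DESeq2 and 0.0135 by limma-voom). The leukocyte and keratinocyte sums differed between the tissues, and their part in the Socs3 tissue differences was not tested. Between genotypes, the difference was 1.34 ± 0.76 in skin (adjusted p = 0.787) and -0.53 ± 0.53 in lung (adjusted p = 1), and without wild-type lung 1 the lung value turned to 0.27.

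In Rel-null against wild-type lung, 1 member was higher and 8 were lower, with a median log2 difference of -0.53 beside -0.08 over all genes tested. None of the 9 passed by edgeR, where 0% of all genes passed, and 1 of 9 (Lif) had an unadjusted p under 0.05, where 6.31% of genes did. DESeq2 called 51 genes in all, Lif among them, and limma-voom called 6, none a member.

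In Rel-null against wild-type skin, 4 members were higher and 5 lower, with a median of -0.28 beside 0.01 over all genes. None passed, again beside 0% of all genes, and 1 of 9 (Il6ra) had an unadjusted p under 0.05, where 6.24% of genes did. Il6ra and Socs3 were higher without overlap, 2 of 9, where 13.7% of genes were. For both, the 95% counting intervals of the nearest libraries overlapped. DESeq2 called 153 genes and limma-voom 300 in skin, none of them a member. With 2 wild-type libraries, an exact permutation test in skin cannot give a p under 0.1. The skin genotypes also differed in summed keratinocyte genes (31.2 and 49.3 CPM against 1101 to 2899), and the part of this in the member values was not tested. No member passed in the difference between the skin and lung effects (0% of all genes, 766 at an unadjusted p under 0.05), while DESeq2 called Lif among 100 genes and limma-voom 174 genes with no member.

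Between wild-type skin and lung, 2 members were higher and 7 lower (median -1.19 beside -0.13), and Il6st and Socs3 passed, 2 of 9, where 2.97% of all genes passed. Lifr, Il6st, Il6ra and Socs3 were lower without overlap, 4 of 9, where 8.19% of genes were. For Lifr and Il6ra the 95% counting intervals of the nearest libraries overlapped. Between Rel-null skin and lung, 3 members were higher and 6 lower (median -1.15 beside -0.01), and Lif (higher) and Il6st (lower) passed, 2 of 9, where 5.05% of all genes passed. Lif and Il11 were higher without overlap, where 13.3% of genes were, and Il6st, Il6ra and Socs3 were lower, where 7.58% of genes were. The Il6ra gap was within counting error. The leukocyte and keratinocyte sums also differed between the tissues, and their part in the member values was not tested. The tissue and genotype comparisons share libraries, so they are not independent of one another.

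**Figure D4:**
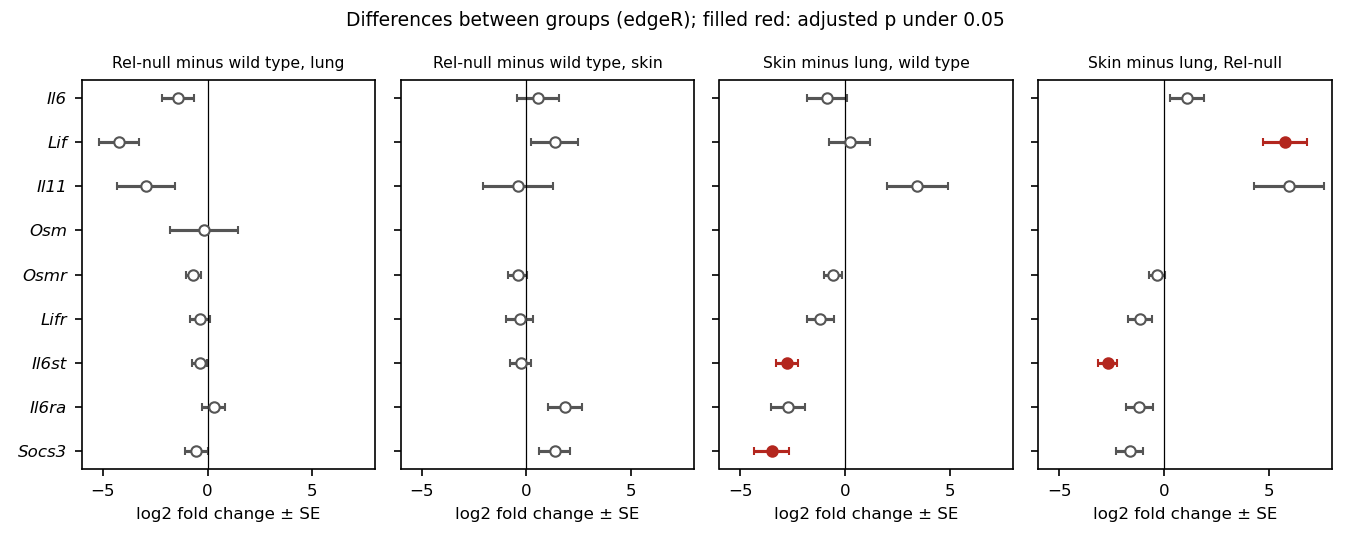
Log2 fold changes with their SE from edgeR are drawn for each member in 4 comparisons, with filled red dots for an adjusted p under 0.05, and Osm only in the first panel. No member is filled in the genotype panels, Il6st (-2.79) and Socs3 (-3.52) are filled for wild-type tissue, and Lif (5.77) and Il6st (-2.69) for Rel-null tissue.

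A fixed list of 20 textbook STAT3-responsive genes was partly lower in skin. STAT3 activity was not measured, and its part in the levels of these genes was not tested. In wild-type skin against lung 6 of 20 were higher and 14 lower, and 4 passed, all lower, where 2.97% of all genes passed. These were Icam1, an adhesion molecule (-3.88 ± 0.43, edgeR adjusted p = 0.000165), Pim1, a survival kinase (-3.05 ± 0.74, adjusted p = 0.0342), and the transcription regulators Cebpd (-2.07 ± 0.51, adjusted p = 0.0377) and Bcl3 (-2.16 ± 0.56, adjusted p = 0.0494). Icam1 kept its call in 23 of 24 alternative fits, Pim1 in 15, Cebpd in 13 and Bcl3 in 5. In Rel-null skin against lung 9 of 20 were higher and 11 lower, and 2 passed, both lower, where 5.05% of all genes passed. These were Icam1 (-2.36 ± 0.33, adjusted p = 0.000396) and the anti-apoptotic gene Mcl1 (-1.57 ± 0.27, adjusted p = 0.00251). Batf read 0 to 0.255 CPM in Rel-null skin and 5.16 to 23.1 CPM across Rel-null lung (edgeR adjusted p = 0.0838). It passed by DESeq2 (adjusted p = 0.000108) and limma-voom (adjusted p = 0.000114), which called 10.8% and 27.4% of all genes there. The median of the 20 was -0.89 in wild type, beside -0.13 over all genes, and -0.05 in Rel-null cultures, beside -0.01. The summed leukocyte genes moved with the tissue (at least 4929 CPM in each lung library, at most 177 in each skin library), and their part in these differences, and in those of the lists that follow, was not tested.

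Between genotypes none of the 20 passed, where 0% of all genes passed in either tissue. In lung 5 were higher and 15 lower (median -0.41, beside -0.08 over all genes). The smallest p-values there belonged to Fos (-3.06 ± 1.29), Lcn2 (-2.77 ± 1.17) and Myc (-0.89 ± 0.46), with adjusted p-values of 0.781, 0.781 and 0.8. Fos read 14.8 to 1095 CPM across wild-type lung and 0.195 to 130 CPM across Rel-null lung. In skin 14 were higher and 6 lower (median 0.76, beside 0.01 over all genes). The smallest p-values there belonged to Icam1 (1.28 ± 0.39, adjusted p = 0.522), Hp (-3.19 ± 1.15, adjusted p = 0.699) and Cebpd (1.19 ± 0.51, adjusted p = 0.784). Hp, the haptoglobin gene, read 13.1 and 3249 CPM in the 2 wild-type skin libraries, and its difference turned to 4.02 without wild-type skin 11.

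Of 18 JAK-STAT transducers and inhibitors, 8 were higher and 10 lower in Rel-null skin against lung, and 2 passed, both lower, where 5.05% of all genes passed. These were Grb2, an adaptor to the Ras pathway (-1.26 ± 0.29, edgeR adjusted p = 0.0154), and Socs2, a feedback inhibitor best known from growth hormone signalling (-2.55 ± 0.65, adjusted p = 0.0312). Grb2 kept its call in 21 of 24 alternative fits and Socs2 in 17. Ptpn1, a phosphatase of JAK kinases, read -1.11 ± 0.37 there (adjusted p = 0.105 by edgeR, 0.0429 by DESeq2 and 1.99e-05 by limma-voom). In wild-type tissue none passed, where 2.97% of all genes passed. The smallest p-values there were those of Grb2 (-0.79 ± 0.32), Socs2 (-1.46 ± 0.71) and Ptpn1 (mean 76 CPM in skin, 138 in lung), with adjusted p-values of 0.265, 0.396 and 0.292. Between genotypes none passed, where 0% of all genes passed. The smallest p-values in lung were those of Grb2 (0.62 ± 0.24), Jak1 (-0.35 ± 0.25) and Jak2 (mean 36.1 CPM in Rel-null, 73.5 in wild type), and in skin those of Shc1 (-0.63 ± 0.30), Socs2 (-1.45 ± 0.70) and Jak2 (-0.88 ± 0.61). The medians of the list lay between -0.21 and -0.15 in all 4 comparisons, beside -0.13 to 0.01 over all genes.

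Of 10 other ligands and receptors of the gp130 family, 9 were tested and Il31 did not pass the count filter. In Rel-null skin against lung 2 of the 9 were higher and 7 lower, and 1 passed, where 5.05% of all genes passed. Ebi3, a subunit shared by dimeric cytokines, was this gene and was lower in Rel-null skin, with 0 counts in all 3 libraries against 0 to 21.4 CPM across Rel-null lung (edgeR adjusted p = 0.0257, called in 17 of 24 alternative fits). In wild type, Ebi3 also had 0 counts in skin against 1.14 to 9.82 CPM in lung. Its adjusted p was 0.146 by edgeR, 0.0023 by DESeq2 and 0.269 by limma-voom. Clcf1, a ligand of the ciliary neurotrophic factor receptor, read 16.8 to 44.2 CPM in Rel-null skin and 2.73 to 13.5 CPM across Rel-null lung (2.35 ± 0.69). Its adjusted p was 0.0614 by edgeR, 0.00934 by DESeq2 and 0.000685 by limma-voom. Il27, which encodes the partner subunit of Ebi3, had 0 counts in Rel-null skin and 0 to 0.868 CPM in Rel-null lung (adjusted p = 0.299). Cntfr read 0 and 2.63 CPM in wild-type skin against 0.221 to 34 CPM in wild-type lung (adjusted p = 0.503), and Il31ra reached only 0.751 CPM in that comparison (adjusted p = 0.554). Between genotypes none passed in lung, where 0% of all genes passed. Clcf1 (-1.46 ± 0.62) and Ctf1 (-1.20 ± 1.63) had adjusted p-values of 0.781 and 1 there, and Il31ra reached only 0.817 CPM. None passed in skin either, again beside 0% of all genes. Il27ra (-3.44 ± 2.33), Il31ra (2.01 ± 3.17) and Cntfr (0.73 ± 2.07) had adjusted p-values of 0.825, 0.967 and 1 there.

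The 4 genes of receptor shedding, by which membrane IL-6 receptor is released as a soluble form, gave no call in any comparison by edgeR. Of all genes, 0% passed between genotypes, 2.97% between wild-type tissues and 5.05% between Rel-null tissues. Rhbdf2, a partner of the sheddase ADAM17, read 47.6 to 62.1 CPM in Rel-null skin and 14.6 and 26 CPM in wild-type skin (1.45 ± 0.39, edgeR adjusted p = 0.434, DESeq2 adjusted p = 0.00914). Adam10 read 146 CPM on average in Rel-null skin and 310 in wild-type skin (adjusted p = 0.784), and Rhbdf1 differed by -0.65 ± 0.44 (adjusted p = 0.825). In lung, Rhbdf1 (-0.39 ± 0.33), Rhbdf2 (0.18 ± 0.27) and Adam17 (0.20 ± 0.32) had adjusted p-values of 0.961, 1 and 1. Between tissues, Rhbdf2 was at -1.17 ± 0.36 for wild-type skin minus lung, with Adam10 at 0.54 ± 0.39 and Adam17 at -0.51 ± 0.41. The Rhbdf2 adjusted p was 0.115 by edgeR, 0.0101 by DESeq2 and 0.616 by limma-voom. In Rel-null cultures Adam17 was at -1.19 ± 0.37 (edgeR adjusted p = 0.0826), Adam10 at -0.58 ± 0.37 and Rhbdf2 at 0.10 ± 0.31. Adam17 passed there by DESeq2 (adjusted p = 0.0197) and limma-voom (adjusted p = 0.000695).

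Members were also compared with one another over the 14 libraries by Spearman's rho of CPM, as a description that mixes tissue, genotype and library. Lif and Il11 ran together (0.91, and 0.92 within the 9 lung libraries), as did the neighbours Osmr and Lifr (0.86 and 0.85). Il6st and Socs3 had 0.86 over all and 0.68 in lung. Lif and its neighbour Osm did not run together (-0.38 and 0.15). Among 10787 protein-coding genes with a mean of at least 5 CPM, those most like Lif were Syde1 (0.96), Tnc (0.94), Arhgef17 (0.94), Scd1 (0.93) and Tiam1 (0.92), with 0.98, 0.97, 0.93, 0.88 and 0.88 in lung alone. Tnc encodes the matrix protein tenascin C, and read 229 to 2089 CPM in lung and 4217 to 8261 CPM in skin. Those most like Il6 were Egfr (0.88), Cxcl2 (0.87), Lrrc32 (0.82), Chst11 (0.78) and Fosb (0.77), with 0.85, 0.87, 0.93, 0.77 and 0.85 in lung alone. Those most like Socs3 were Pim1 (0.96), Slc44a2 (0.96), C1qtnf1 (0.95), Tgm2 (0.95) and Igfbp4 (0.94), with 0.95, 0.92, 0.93, 0.92 and 0.93 in lung alone. The libraries behind these values share their tissue, so a tissue difference alone can give a high rho, and the lung values stand beside them for that reason. The genes were picked by rho over all 14 libraries, which include the 9 lung libraries. The lung values are therefore not independent of that choice, and they still mix genotype and library.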

How the data were processed

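The authors deposited raw read counts per Ensembl gene for 14 libraries, in columns that carry the number in each sample's title. Per the submitters' processing notes, FastQC 0.11.2, Trimmomatic 0.33 and STAR 2.4.2a were used with the build GRCm38; per the labels' protocols, the library kit was directional. The counting tool, its strand setting and its annotation are unnamed there (not given in the sources used here). Symbols and coordinates came from GENCODE M21 (48435 of 48795 identifiers found, 360 not), and promoter windows from RefSeq (8 of 9 members, 10 windows).

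Counts were tested with edgeR 4.0.16 in R 4.3.3, with TMM scaling, a low-count filter (filterByExpr, count 10, total 15), 1 quasi-likelihood model over the 14 libraries (a mean per group), Benjamini-Hochberg adjustment over 16408 genes and a threshold of 0.05. The common dispersion was 0.948. CPM per library are counts over the raw library total. DESeq2 1.42.0, limma 3.58.1 (voom with quality weights), other scalings and filters, fits of only the 2 groups and fits without each library were alternatives. Members were also compared by exact two-sided permutation tests of log2(CPM + 1), adjusted over 36 tests. The fit was also run on simulated counts with 200 genes changed in Rel-null lung and less spread than these libraries have. That run checked the code only. It does not show how the fit behaves on these libraries or in skin.

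The text names all members, and from each of the 4 pathway lists the 3 genes with the smallest p per comparison and any that passed. One further gene of the lists is not reported here and was left out of the list counts. The members and lists were chosen with earlier results of these data known. Fits without the 4 libraries with most gaps (a gap is a gene with 0 counts and at least 5 CPM on average in the tissue's other libraries), without the 2 libraries with Xist reads, and without Rel-null skin 19 and 20 were added after seeing the data.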

Additional observations from a re-analysis of the deposited data

Results flagged for a closer look

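Among 18 groups of 4 or 5 libraries of the members, 3 held a library far from the others by Dixon's test, which chance does in about 1 in 20 groups. Il11 read 22.5 CPM in wild-type lung 4, against 0.549 to 5.5 CPM in the other 4 libraries of the group. Il11 read 3.27 CPM in Rel-null lung 10, against 0 to 0.0868 CPM in the other 3. Socs3 read 461 CPM in wild-type lung 1, against 71 to 181 CPM in the other 4. Wild-type lung 4 is one of the libraries with the most gaps, Rel-null lung 10 is the library with a conflicting treatment label, and wild-type lung 1 is one of the libraries with Xist reads. The part of these features in the values was not tested.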

How the results depend on the processing

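No paired analysis was possible because the replicate numbers are not shared between groups. Of the alternative values for single genes, 1891 kept direction and side of the threshold, 58 gained a call, 64 lost one and 40 reversed. The cause of the changes was not tested. In lung, the genotype calls among members went from 0 to 1 by DESeq2 and without a low-count filter (Lif), and among members and listed genes likewise to 1. In skin they went from 0 to 1 among members without the Xist libraries, with a range of 0 to 1 when single libraries were left out. Among members and listed genes they went from 0 to 1 by DESeq2 and to 2 without the gap libraries and without the Xist libraries (range 0 to 2 without single libraries). For the difference between the effects, the member count went from 0 to 1 without a filter, by DESeq2 and without the Xist libraries (range 0 to 1), and that with listed genes to 1 without a filter and by DESeq2 and to 2 without the gap or the Xist libraries (range 0 to 2). For wild-type tissue, the 2 member calls became 1 by limma-voom, with only the 2 groups and without the gap libraries (range 0 to 2). The 6 calls with listed genes became 15 by DESeq2, 2 by limma-voom, 3 with only the 2 groups and 10 without the gap libraries (range 3 to 9). For Rel-null tissue, the 2 member calls became 4 without a filter, 4 by DESeq2, 7 by limma-voom, 5 without the gap libraries and 4 without the Xist libraries (range 2 to 4). The 7 calls with listed genes became 13 by DESeq2, 25 by limma-voom, 18 without the gap libraries and 14 without the Xist libraries (range 4 to 12). Calls over all genes moved as well: for Rel-null tissue from 5.05% of genes to 1770 (10.8%) by DESeq2, 4501 (27.4%) by limma-voom, 1044 (4.34%) without a filter, 2171 (12.4%) without the gap libraries and 1088 (6.20%) without the Xist libraries, and for wild-type tissue from 487 to 1233 by DESeq2 and 661 by limma-voom. The 9 exact tests with an unadjusted p under 0.05 became 5 to 6 without single libraries, since fewer libraries raise the smallest p.

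Log2 values that reversed when single libraries were left out lay in these ranges: in skin by genotype, Il6 -0.32 to 3.49, Il11 -1.36 to 3.76, Osmr -0.76 to 0.07, Il6st -0.55 to 0.03, Cntfr -0.39 to 8.14, Shc1 -1.06 to 0.03 and Hp -4.18 to 4.02; in lung by genotype, Osm -0.86 to 0.30, Il6ra -0.01 to 0.49, Socs3 -0.84 to 0.27 and Il31ra -1.35 to 5.14; in wild-type tissue, Il6 -3.75 to 0.02, Lif -1.36 to 0.91, Il11 -0.74 to 4.56, Il31ra -1.41 to 5.55 and Adam10 -0.05 to 0.93. Single values that reversed in this way were also -0.10 and -0.09 for Lif in wild-type tissue and 0.06 and 0.26 for Osm in lung. Without the gap libraries, the skin genotype values reversed for Il11 (3.15), Osmr (0.36), Lifr (0.21), Il6st (0.22), Il27ra (0.24), Cntfr (-0.25), Shc1 (0.14) and Hp (4.38), and the wild-type tissue value for Lif (-1.05). Without the Xist libraries, reversals were Il6 in skin (-0.29) and in wild-type tissue (0.70), Osm (0.27) and Socs3 (0.26) in lung, and Adam10 (-0.18) and Il31ra (-1.61) in wild-type tissue. Without Rel-null skin 19 and 20, skin values reversed for Il6 (-0.07), Il11 (0.39) and Il31ra (-5.68). By limma-voom, Il6 in wild-type tissue was 0.13 and Osm in lung 0.38. Wild-type skin 22, with the lowest depth, and the group of 2 it belongs to limit what the skin comparisons can show.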
